A study of Homo sapiens with 9 samples.

Results

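The HOX genes are the homeobox transcription factor genes of the HOXA, HOXB, HOXC and HOXD clusters, and they were taken here as every probe whose name was HOX followed by a cluster letter and a paralog number. That rule found 54 of the 47230 probes, for 39 genes, and of several probes for 1 gene the brightest was used. The cells were NCI-H716, a human colorectal cancer line with enteroendocrine features that was derived from ascites of a cecal adenocarcinoma. Total RNA of 9 samples was hybridised to an Illumina bead array, 3 arrays for each of 3 groups. The untreated cells received nothing, the second group carried a control vector and the third a YAP mutant vector. YAP, encoded by YAP1, is the coactivator that the Hippo pathway restrains, and it reaches DNA through TEAD factors. Labels give neither the mutation, the promoter, the delivery of the vector nor whether each line was 1 clone or a pool. Whether replicates were separate cultures is not stated, and a p-value here then reflects the spread among arrays that could be technical.

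HOX proteins bind DNA through a homeodomain, usually together with TALE cofactors such as PBX and MEIS, and give cells their address along the head-to-tail axis. Within a cluster the genes lie in the order in which they are used along that axis, with low paralog numbers towards the head and high numbers towards the tail. In the gut the clusters are switched on in nested domains, and adult epithelium keeps part of that code. Retinoic acid and CDX factors turn the clusters on, while Polycomb complexes keep unused parts silent and Trithorax complexes of the MLL type hold active parts open.

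Median raw intensity ran from 104.2 to 128.8 over the 9 arrays, the lowest in control vector replicate 3 and YAP mutant vector replicate 1. Between 38.7% and 41.2% of probes lay above the background floor of their array, which was set from the lower side of that array's own signal distribution at a normal quantile of 0.95. Replicates correlated at 0.9937 to 0.9955 across genes, which are not independent replicates. YAP1 itself lay at log2 8.02 to 8.30 in the untreated arrays, 7.80 to 7.95 with the control vector and 7.83 to 8.07 with the YAP mutant vector. The difference of YAP1 between the vectors was 0.07 (limma, adjusted p = 0.963), and as the stretch of transcript its probe reads is not known here, it does not check the labels. Of 10 colorectal epithelial markers EPCAM, KRT8, KRT18, CDX2 and CDH17 were above background on 9 arrays, while CDH1, KRT20 and VIL1 were on 0. Of 10 enteroendocrine markers 7 were above background on 9 arrays, GCG and CHGA among them, and PYY on 0.

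Of the 39 HOX genes 19 were above background on all 9 arrays, 8 on some arrays and 12 on none. Counted by group, 20 of 39 (51.3%) were above background on 3 of 3 untreated arrays, 22 (56.4%) with the control vector and 22 (56.4%) with the YAP mutant vector. Over the brightest probes of all 30816 named genes the same shares were 39.6%, 39.6% and 40.3%, and 37.3% were above background on 9 of 9 arrays. A single array held between 22 and 25 HOX genes above its floor. As a gauge of that floor, 4.71% to 6.05% of olfactory receptor probes exceeded it, depending on the array.

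The clusters differed in how many genes were detected. HOXA had 9 of 11 genes above background on all arrays, HOXB 5 of 10, HOXC 4 of 9 and HOXD 1 of 9. By position, 4 of the 8 genes of paralog groups 1 to 3 were above background on all arrays, 10 of the 15 genes of groups 4 to 8, and 5 of the 16 genes of groups 9 to 13. The 12 genes on 0 arrays were HOXB1, HOXB4, HOXB9, HOXC5, HOXC11, HOXC12, HOXD4, HOXD8, HOXD9, HOXD11, HOXD12 and HOXD13. Thus 6 of the 9 HOXD genes were not detected, whereas no HOXA gene fell into that class. The clusters were not probed alike, as each HOXD gene had 1 probe and several HOXA genes had more to choose from. A probe below the floor says only that its signal could not be told from background, and a gene can be transcribed in a form that its probe does not read.

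**Figure D1:**
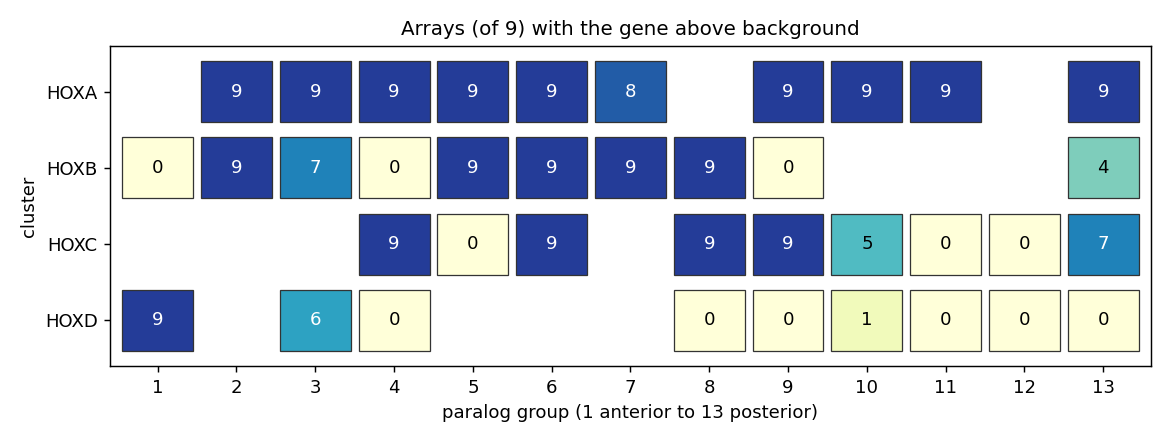
Number of arrays, of 9, on which the brightest probe of each of 38 HOX genes lay above background, by cluster (rows) and paralog group (columns, from anterior to posterior). In HOXA all genes shown reach 9 arrays except HOXA7 with 8, in HOXB the genes from HOXB5 to HOXB8 and HOXB2 do, and in HOXD only HOXD1 does.

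Next to these counts the genes nearest the floor need their margins, which are raw log2 intensity minus the floor of the array. HOXA7 lay above background on 8 arrays with margins of -0.01 to 0.12, and HOXB3 on 7 with -0.13 to 0.15. HOXC13 was above on 7 arrays (-0.05 to 0.37), HOXC10 on 5 (-0.18 to 0.12), HOXD3 on 6 (-0.11 to 0.12) and HOXB13 on 4 (-0.18 to 0.20). HOXD10 was above on 1 array, at a margin that reached 0.07. These genes therefore changed class by small margins, and the 2 genes by which the vector groups exceeded the untreated group came from among them: HOXA7 and HOXB3 reached 3 of 3 arrays in both vector groups but 2 and 1 of 3 in the untreated cells. HOXC10 counted as well in the control vector group and HOXC13 in the untreated and YAP mutant vector groups.

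**Figure D2:**
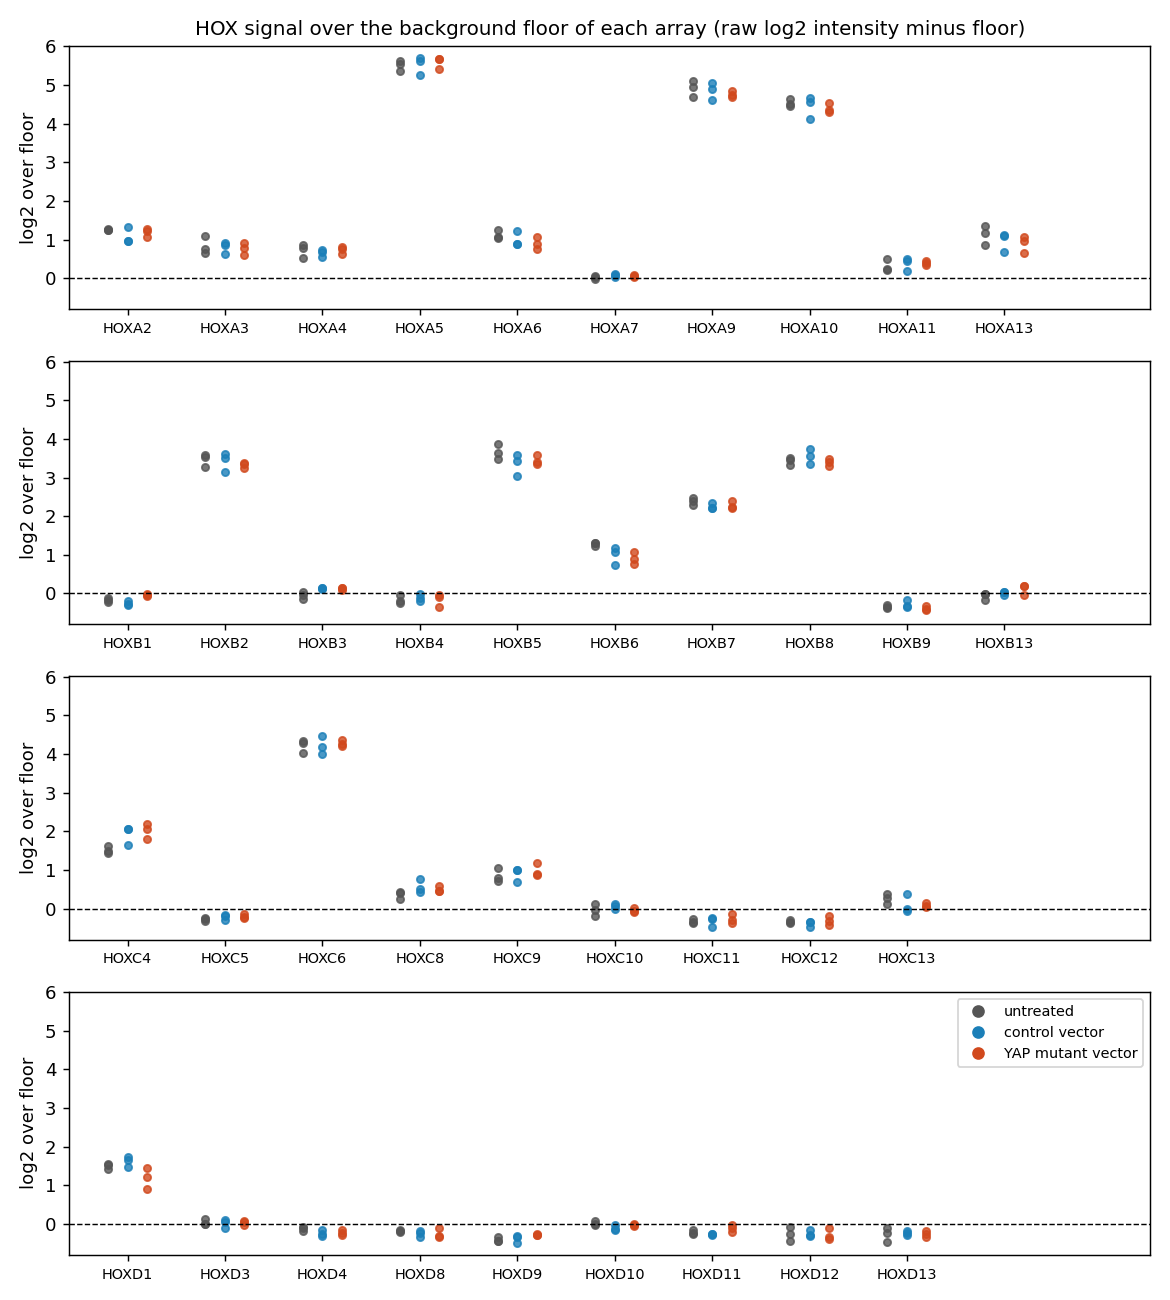
Raw log2 intensity minus the background floor of the same array (y axis, log2 units) for the brightest probe of 38 of the 39 HOX genes, 1 point per array, coloured by group, with the floor as a dashed line at 0. HOXA5 clears the floor by 5.26 to 5.70, and most HOXD genes lie on or under the line in every group.

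The anterior genes, of paralog groups 1 to 3, act in the hindbrain and the pharyngeal arches. HOXA2, which patterns the second pharyngeal arch, was at log2 8.06, 8.03 and 8.07 in untreated cells, 8.04, 7.63 and 7.93 with the control vector and 7.98, 8.02 and 8.01 with the YAP mutant vector. Its YAP mutant vector arrays lay just under the untreated ones (difference -0.05), inside the range of the control vector arrays. HOXA3, needed for thymus and parathyroid in the mouse, was at 7.38, 7.85 and 7.46 untreated, 7.59, 7.52 and 7.48 with the control vector and 7.39, 7.62 and 7.50 with the YAP mutant vector, and its groups overlapped. HOXB2, a hindbrain gene, was at 10.24, 10.43 and 10.52 untreated, 10.46, 10.36 and 10.34 with the control vector and 10.36, 10.28 and 10.38 with the YAP mutant vector, again with overlapping groups. None of these 3 genes was called in any comparison.

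HOXB3, which acts in hindbrain and in blood progenitors, had 6.33, 6.46 and 6.55 untreated, 6.66, 6.63 and 6.76 with the control vector and 6.64, 6.65 and 6.68 with the YAP mutant vector. All 6 vector arrays lay above the 3 untreated ones, but the signal was at the floor and the differences of 0.24 and 0.21 were not called (limma, adjusted p = 0.273 and 0.255). HOXD1, known in the mouse for the wiring of pain-sensing neurons, was the single HOXD gene above background throughout. Its signals were 8.27, 8.38 and 8.35 untreated, 8.42, 8.49 and 8.55 with the control vector and 7.78, 7.96 and 8.29 with the YAP mutant vector. The YAP mutant vector arrays were all lower than the control vector arrays, and replicate 3 of them stood at the level of the untreated cells. HOXB1, which acts early in hindbrain patterning, stayed between 6.05 and 6.43, under the floor. HOXD3 ran from 6.33 to 6.68, with all groups overlapping.

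The central genes of groups 4 to 8 held most of the detected members. HOXA4, a gene of neck and upper trunk, was at 7.52, 7.57 and 7.19 untreated, 7.16, 7.36 and 7.53 with the control vector and 7.42, 7.48 and 7.47 with the YAP mutant vector. HOXA5, needed for lung and gut maturation in the mouse, was at 12.34, 12.52 and 12.48, then 12.59, 12.55 and 12.46, then 12.55, 12.63 and 12.72 in the same order of groups. The 3 YAP mutant vector arrays of HOXA5 lay above the 3 untreated ones by a mean of 0.18, which was not called (adjusted p = 0.342). HOXA6, a little studied trunk gene, was at 7.86, 8.02 and 7.82 untreated, 7.95, 7.54 and 7.82 with the control vector and 7.57, 7.58 and 7.84 with the YAP mutant vector. HOXA7, of the same region, stayed at the floor with 6.50, 6.51 and 6.56, then 6.57, 6.64 and 6.58, then 6.56, 6.59 and 6.53. For HOXA4 and HOXA6 all groups overlapped, and for HOXA7 the control vector arrays lay above the untreated ones by 0.07 ± 0.09 (SE). HOXB4, used to expand blood stem cells, and HOXD4 ran from 5.94 to 6.47 and from 6.02 to 6.40, under the floor on every array.

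HOXB5 to HOXB8 formed an unbroken run of detected genes. HOXB5, which acts on RET in the enteric neural crest, was at 10.46, 10.75 and 10.57 untreated, 10.41, 10.27 and 10.22 with the control vector and 10.46, 10.52 and 10.39 with the YAP mutant vector. The control vector arrays lay below all untreated arrays (difference -0.29, not called, adjusted p = 0.174), while those of the YAP mutant vector overlapped both. HOXB6, a trunk and limb mesoderm gene, was at 8.07, 8.10 and 8.10 untreated, against 7.89, 7.76 and 7.63 with the control vector and 7.75, 7.81 and 7.50 with the YAP mutant vector. Every vector array of HOXB6 was lower than every untreated array, and both vector groups overlapped. HOXB7, often raised in tumours, was at 9.22, 9.27 and 9.35, then 9.15, 8.98 and 9.37, then 9.26, 9.11 and 9.33, with no separation. HOXB8, known for its part in myeloid cells, was at 10.28, 10.40 and 10.40, then 10.38, 10.58 and 10.56, then 10.43, 10.40 and 10.40, also with overlap.

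Of the central HOXC genes, HOXC4, HOXC6 and HOXC8 were above background on 9 arrays and HOXC5 on 0. HOXC4, a cervical gene that is also used in lymphocytes, was at 8.28, 8.44 and 8.32 untreated, 8.84, 8.84 and 8.77 with the control vector and 8.82, 9.06 and 8.96 with the YAP mutant vector. All 6 vector arrays were higher than all untreated arrays, and the 2 vector groups overlapped at 8.82 to 8.84. HOXC5, which lies between HOXC4 and HOXC6, stayed between 6.03 and 6.26, below the floor on every array. HOXC6, which in the mouse and chick marks motor neurons of the forelimb level, was at 11.01, 11.25 and 11.23, then 11.32, 11.07 and 11.20, then 11.35, 11.21 and 11.38, with overlap. HOXC8, another gene of that level, was at 6.86, 7.06 and 7.02, then 7.42, 7.11 and 7.19, then 7.17, 7.04 and 7.27. Its control vector arrays lay above the untreated ones by 0.26, not called (adjusted p = 0.273).

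Because HOXC4 is the tested HOX gene with the largest difference in these data, the sequence at its annotated start is shown with that of HOXD1, the gene that differed most between the vectors. Both are RefSeq windows of GRCh38.p14 from 250 bases before to 50 bases after the start, 5′ to 3′ on the plus strand, at chr12:54016638-54016937 for HOXC4 and chr2:176188418-176188717 for HOXD1. Capitals mark GGAATG, the core of the motif of TEAD factors, which in the HOXC4 window stands on the other strand as CATTCC.
HOXC4: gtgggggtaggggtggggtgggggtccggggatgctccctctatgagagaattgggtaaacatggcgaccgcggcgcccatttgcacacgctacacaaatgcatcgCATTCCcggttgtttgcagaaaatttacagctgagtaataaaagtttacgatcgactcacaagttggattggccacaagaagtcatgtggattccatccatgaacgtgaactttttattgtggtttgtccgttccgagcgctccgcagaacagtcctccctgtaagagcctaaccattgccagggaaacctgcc
HOXD1: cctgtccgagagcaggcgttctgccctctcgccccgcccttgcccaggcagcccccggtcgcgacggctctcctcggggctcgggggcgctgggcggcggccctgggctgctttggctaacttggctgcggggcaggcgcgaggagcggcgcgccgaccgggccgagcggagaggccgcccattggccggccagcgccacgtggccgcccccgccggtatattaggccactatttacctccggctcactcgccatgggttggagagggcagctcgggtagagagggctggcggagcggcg
The HOXC4 window holds 1 match, at positions 107 to 112, and HOXD1 none. The same window is listed for HOXC5, a gene on 0 arrays, so that HOXC4 and HOXC5 share this start while only one of them was detected. HOXD1 has 36 CpG dinucleotides and 74.3% G and C in its window, HOXC4 15 and 51.7%. Of all 34796 promoter windows 14% hold GGAATG on either strand, against 7 of the 26 windows (26.9%) listed for 20 HOX genes. They are the window shared by HOXC4 and HOXC5 and 1 window each of HOXA3, HOXA10, HOXD4, HOXD8, HOXD10 and HOXD13. Of these genes HOXC5, HOXD4, HOXD8 and HOXD13 were above background on 0 arrays and HOXD10 on 1. TTTATG, the core of the CDX motif, is in 10.6% of all windows and in 3 HOX windows (11.5%). TGATNNAT, the HOX-PBX core, is in 7.42% of all windows and in 3 HOX windows (11.5%). Both strands were searched for each motif, without regard to overlap between motifs, and a match is a run of letters and not a bound site. HOX windows held a median of 22.5 CpG against 14 over all windows. It was 21 in the 17 windows of genes above background on 9 arrays and 19 in the 7 windows of genes on 0 arrays. These windows are not independent genes. Many of the first set belong to HOXA3, and the window shared by HOXC4 and HOXC5 is in both sets. HOXB1 was the only HOXB gene with a window.

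The posterior genes of groups 9 to 13 belong to lower trunk, hindgut, urogenital tract and distal limb. HOXA9, best known for driving human leukaemias, was at 11.68, 11.99 and 11.90 untreated, 11.77, 11.93 and 11.82 with the control vector and 11.83, 11.81 and 11.77 with the YAP mutant vector. HOXA10, a gene of the uterus, was at 11.44, 11.54 and 11.46, then 11.52, 11.43 and 11.33, then 11.45, 11.51 and 11.37. The groups of both genes overlapped. HOXA11, required in the kidney and forearm of the mouse together with HOXD11, was at 6.84, 6.80 and 7.14, then 7.10, 7.02 and 6.82, then 7.15, 6.91 and 7.01. HOXA13, mutated in hand-foot-genital syndrome and active in the hindgut, was at 7.98, 8.15 and 7.59, then 7.83, 7.79 and 7.54, then 7.45, 7.67 and 7.86. Again no group of either gene stood apart.

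HOXC9, a gene of thoracic motor neurons in the mouse, was at 7.54, 7.80 and 7.42, then 7.70, 7.66 and 7.58, then 7.72, 7.93 and 7.64. HOXC10, of the lumbar level, was at 6.26, 6.45 and 6.65, then 6.55, 6.62 and 6.52, then 6.40, 6.50 and 6.34. HOXC13, which controls hair keratins, was at 6.69, 6.89 and 6.98, then 6.93, 6.45 and 6.42, then 6.54, 6.55 and 6.67. HOXC9 was clear of background with overlapping groups, whereas HOXC10 and HOXC13 were close to the floor. The YAP mutant vector arrays of HOXC10 lay below those of the control vector (difference -0.15) and those of HOXC13 below the untreated ones (-0.27), neither called (adjusted p = 0.904 and 0.256). HOXB13, a marker of prostate and distal colon, ran from 6.24 to 6.79 and passed the floor on 0 untreated arrays, 2 control vector arrays and 2 YAP mutant vector arrays. HOXB9 stayed between 5.83 and 6.23, HOXC11 between 5.77 and 6.26, HOXC12 between 5.77 and 6.20, and HOXD8 to HOXD13 between 5.76 and 6.61.

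The first comparison, YAP mutant vector against control vector, asks what the YAP mutant changes beyond the vector. No HOX gene passed the test: 0 of the 25 tested HOX genes were called by limma (Benjamini-Hochberg adjusted p under 0.05 over 15595 features), against 0.333% of all features (0.314% higher and 0.0192% lower), and 1 had an unadjusted p under 0.05 (6.51% of all features). The other 14 HOX genes were not above the floor on at least 3 arrays and were not tested. HOXD1 (probe ILMN_1717381) had the largest difference, at -0.48 ± 0.12 (SE, n = 3 per group), with group means of 8.01 ± 0.26 (SD) and 8.49 ± 0.06 (limma, adjusted p = 0.0929). Its 95% interval ran from -0.72 to -0.24. Without YAP mutant vector replicate 1, 2 or 3 the HOXD1 difference was -0.37, -0.45 or -0.62 (limma, adjusted p = 0.523, 0.338 and 0.0106). Without both dim arrays it was -0.34 (0.729), and HOXD1 was called in 1 of 21 alternatives. The 24 other tested HOX genes differed by -0.15 to 0.16, with 95% intervals that lay within -0.37 and 0.37. Groups did not overlap for 2 HOX genes, HOXD1 and HOXC10, against 11.5% of all features. The median difference was -0.01 over the tested HOX genes and -0.00066 over all features, and the median absolute difference was 0.08 in both.

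The second comparison, control vector against untreated cells, shows what goes with carrying a vector. HOXC4 (probe ILMN_1719975) rose 1.38-fold, by log2 0.46 ± 0.10 (SE, n = 3 per group), from a mean of 8.35 ± 0.08 (SD) to 8.81 ± 0.04 (limma, adjusted p = 0.0142). HOXC4 was the only HOX gene called, 1 of 25 tested (4%), against 2.17% of all features (1.52% higher and 0.654% lower), and 5 had an unadjusted p under 0.05 (13.9% of all features). HOXB6 differed by -0.33, with means of 8.09 ± 0.02 and 7.76 ± 0.13 (adjusted p = 0.123), and HOXB5 by -0.29, neither past the threshold. Groups did not overlap for HOXA7, HOXB3, HOXB5, HOXB6, HOXC4, HOXC8 and HOXD1, 7 genes against 18.7% of all features. The median HOX difference was -0.01, and 12 genes lay above 0 and 13 below. Scaling each array to a common median in place of quantile normalization left the HOXC4 difference at 0.40 but not called (adjusted p = 0.550), and it was not called without untreated replicate 1 (0.0673), untreated replicate 3 (0.0631) or control vector replicate 2 (0.0520).

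In the third comparison, YAP mutant vector against untreated cells, HOXC4 rose 1.52-fold, by 0.60 ± 0.10 (SE, n = 3 per group), to a mean of 8.95 ± 0.12 (limma, adjusted p = 6.19e-04). HOXB6 (probe ILMN_1768101) fell by 0.41 ± 0.11 on the log2 scale, which is 1.32-fold lower, to 7.68 ± 0.17 (adjusted p = 0.027). These were 2 of 25 tested HOX genes (8%), against 5.16% of all features (3.35% higher and 1.8% lower), and 6 had an unadjusted p under 0.05 (18.3% of all features). HOXD1 differed by -0.33 ± 0.12 (adjusted p = 0.110). Groups did not overlap for HOXA2, HOXA5, HOXB3, HOXB6, HOXC4 and HOXC13, 6 genes against 23.2% of all features. This comparison shares its untreated arrays with the second one, so the HOXC4 values of both, 0.46 and 0.60, are not independent. Between the vectors HOXC4 differed by 0.14, with an interval from -0.07 to 0.35, and HOXB6 by -0.08, from -0.30 to 0.15. The HOXB6 call was lost without any one of the 3 untreated arrays (adjusted p from 0.0583 to 0.0814) and without YAP mutant vector replicate 3, where it was -0.31 (0.147), while HOXD1 was then called (-0.47, 0.0204). With common median scaling neither HOXC4 (0.49, adjusted p = 0.165) nor HOXB6 (-0.49, 0.136) was called.

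**Figure D3:**
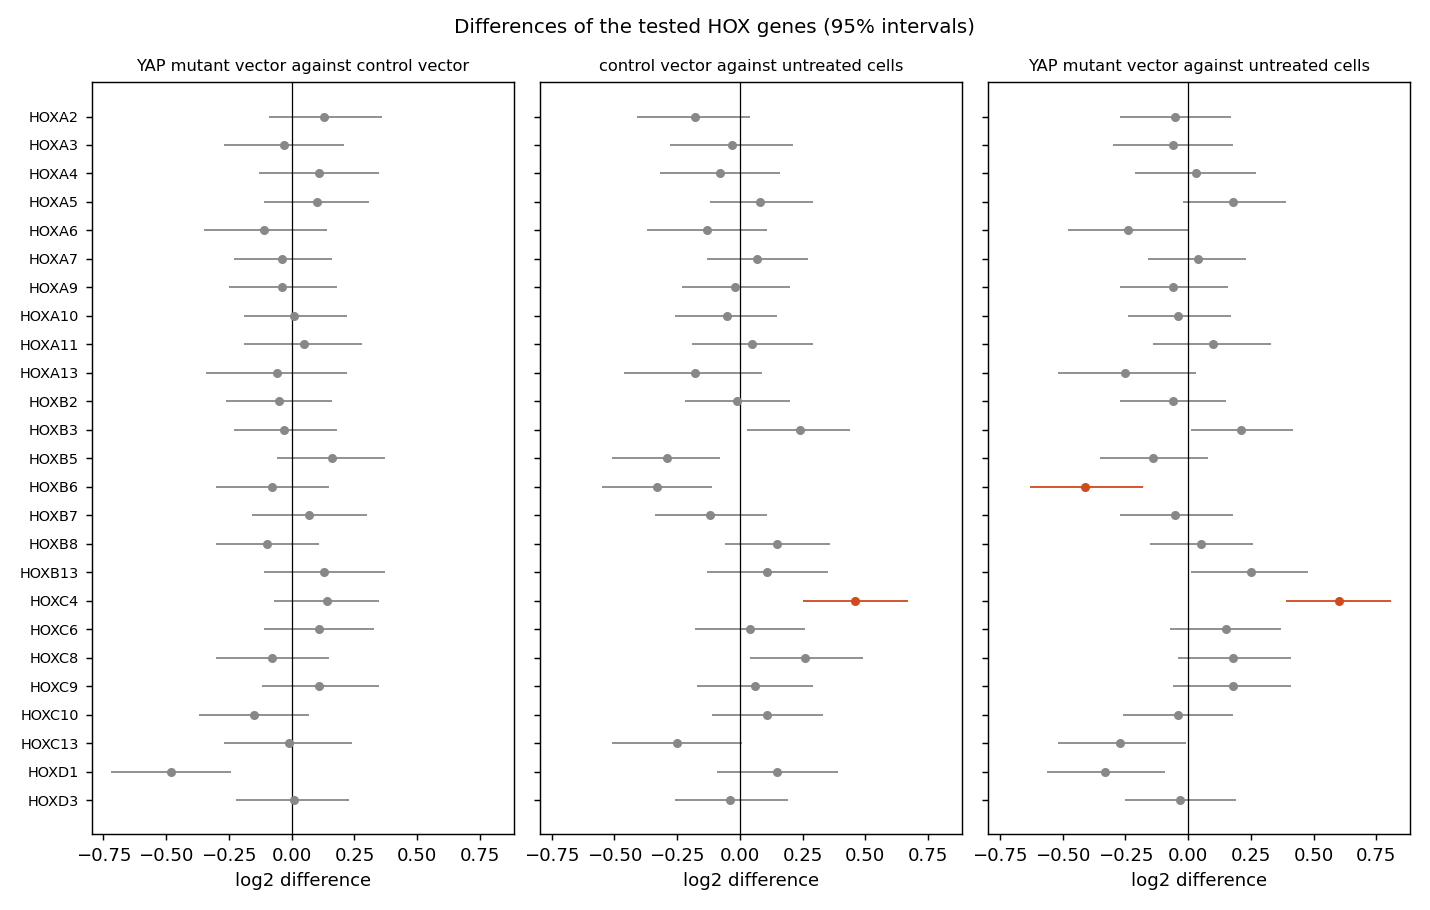
Log2 differences (points) of the 25 tested HOX genes with 95% intervals (lines) in each of the 3 comparisons, called genes in orange. HOXC4 stands right of 0 in both comparisons with untreated cells, at 0.46 and 0.60, and HOXD1 stands left, at -0.48, between the vectors.

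Several HOX genes had more than 1 probe, and the probes did not always move together. HOXC4 had a second probe, close to the floor and above it on 3 of 9 arrays, at 6.47, 6.34 and 6.58 untreated, 6.44, 6.32 and 6.61 with the control vector and 6.22, 6.26 and 6.54 with the YAP mutant vector. That probe of HOXC4 differed by -0.01 and -0.13 from untreated cells, so the rise rests on 1 probe, and with the mean over both probes HOXC4 was not called in either comparison (adjusted p = 0.255 and 0.159). The second HOXB6 probe, above background on 9 arrays, was at 7.30, 7.12 and 7.20, then 6.89, 7.09 and 7.36, then 7.38, 6.94 and 7.07. It differed by -0.07 between YAP mutant vector and untreated cells, and with the mean over probes HOXB6 was not called (adjusted p = 0.167). HOXC4 overlaps HOXC5, HOXC6 and MIR615 in the RefSeq annotation, HOXB6 overlaps HOXB-AS3 and HOXD1 overlaps HAGLR and MIR7704, and which of these transcripts a probe reads is not known here. HOXA10 had 3 probes above background on 9 arrays, with differences of 0.01, 0.12 and 0.07 between the vectors. In all, 9 HOX genes had several probes, and of their 15 dimmer probes 5 were above background on 9 arrays and 7 on 0.

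**Figure D4:**
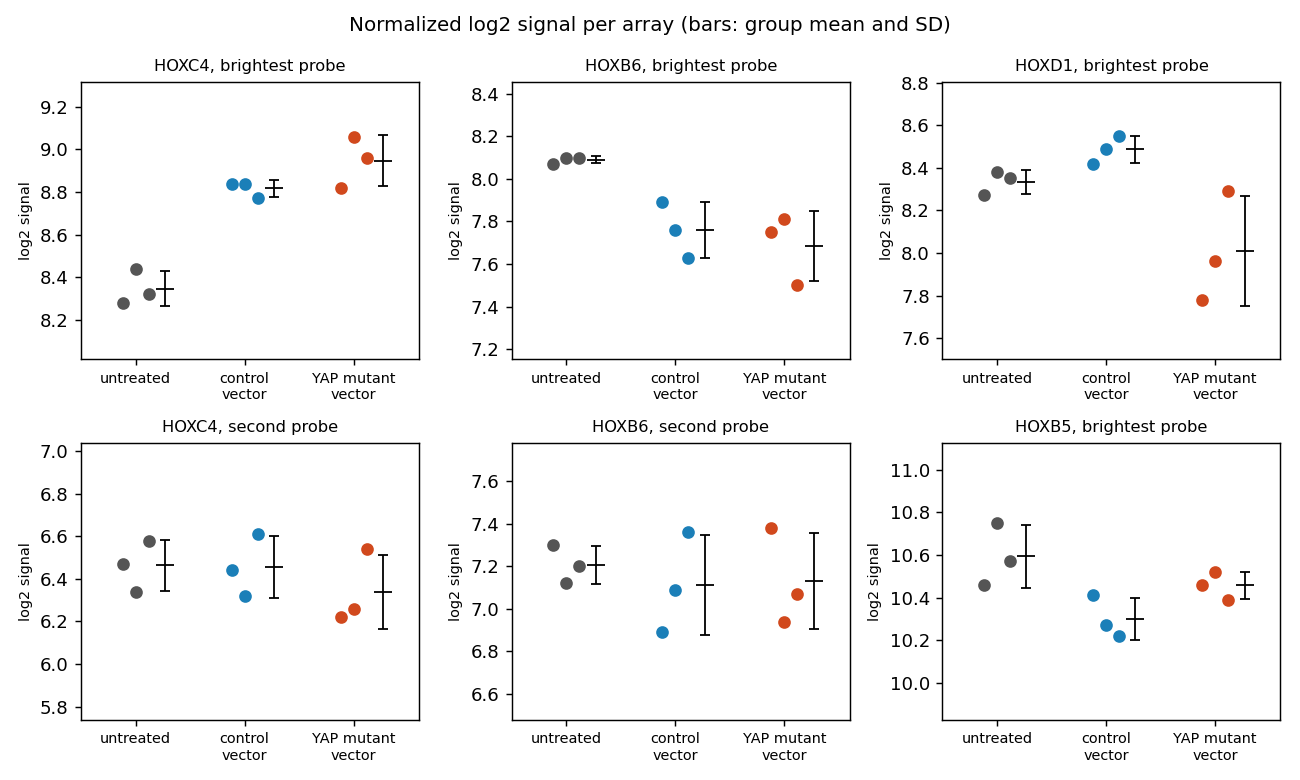
Normalized log2 signal per array (points) with group mean and SD (bars) for HOXC4, HOXB6, HOXD1 and HOXB5, and for the second probes of HOXC4 and HOXB6, each panel on its own axis. The brightest HOXC4 probe runs from 8.28 to 8.44 untreated and from 8.77 to 9.06 in the vector arrays, while its second probe shows no such step.

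Cofactors of the TALE class, which bind DNA beside HOX proteins, were mostly present. Of 11 genes 9 were tested, and limma called 0, 0 and 1 in the 3 comparisons in the order above. An unadjusted p under 0.05 was reached by 2, 0 and 2. Over all features 0.333%, 2.17% and 5.16% were called, and 6.51%, 13.9% and 18.3% had an unadjusted p under 0.05. TGIF2, a TALE repressor, was the one called. Its signals were 7.52, 7.66 and 7.59 untreated, 7.86, 7.54 and 8.04 with the control vector and 8.17, 7.99 and 8.09 with the YAP mutant vector. The untreated and YAP mutant vector arrays of TGIF2 did not overlap, and it rose by 0.49 ± 0.12 (limma, adjusted p = 0.0121). The TGIF2 call was lost without untreated replicate 1 (0.0543), without YAP mutant vector replicate 1 (0.0609) and with common median scaling (0.191). MEIS1, a partner of HOXA9 in blood cells, was above background on 9 arrays and differed by -0.03 between YAP mutant vector and untreated cells (adjusted p = 0.924). The median of the 9 tested TALE genes was 0.04, 0.04 and 0.14 in the 3 comparisons, against -0.00066, -0.0029 and -0.0061 over all features.

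Factors that set gut position upstream of or beside HOX genes were only partly above background. Of 21 genes 9 were tested, and 2, 2 and 4 had an unadjusted p under 0.05 in the 3 comparisons. The shares of all features were 6.51%, 13.9% and 18.3%, with 0.333%, 2.17% and 5.16% called. CDX2, the intestinal master regulator that binds HOX clusters, was above background on 9 arrays at 8.29, 8.14 and 8.27, then 7.97, 8.11 and 8.19, then 8.24, 8.04 and 8.16, whereas CDX1 and CDX4 were above it on 0. CDX2 differed by -0.09 between YAP mutant vector and untreated cells, with overlapping groups. PDX1, the ParaHox factor of duodenum and pancreas, was at 11.53, 11.63 and 11.53 untreated, 11.37, 11.41 and 11.19 with the control vector and 10.99, 10.99 and 10.99 with the YAP mutant vector. The 3 groups of PDX1 did not overlap, and it fell by 0.57 ± 0.10 in the third comparison (adjusted p = 7.75e-04), with -0.33 between the vectors (adjusted p = 0.287). FOXA2, an endoderm pioneer factor, was at 11.36, 11.62 and 11.47, then 11.70, 11.74 and 11.70, then 11.93, 11.88 and 12.13. All 3 groups of FOXA2 were apart as well. FOXA2 rose by 0.49 ± 0.10 in the third comparison (adjusted p = 0.00559; 0.347 with common median scaling), so that 1 gene of the list rose and 1 fell, while 0 were called in the other comparisons.

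Among genes that make, break or sense retinoic acid, DHRS3 and CYP26A1 were called. DHRS3, the retinaldehyde reductase that lowers retinoic acid supply and is itself a retinoic acid target, was at 8.68, 8.78 and 8.95 untreated, 9.28, 9.26 and 9.44 with the control vector and 9.49, 9.61 and 9.70 with the YAP mutant vector. All 3 groups were apart, and DHRS3 rose by 0.52 ± 0.11 with the control vector (limma, adjusted p = 0.00776) and by 0.79 ± 0.11 with the YAP mutant vector against untreated cells (3.82e-05). Its difference of 0.27 between the vectors was not called (adjusted p = 0.61). The DHRS3 call of the second comparison was lost without untreated replicate 1 (0.0538), without control vector replicate 3 (0.0585) and with common median scaling (0.412). CYP26A1, which degrades retinoic acid and is a classic target of it, was at 7.93, 7.85 and 7.94, then 7.83, 7.58 and 7.59, then 7.34, 7.38 and 7.70. It fell by 0.43 ± 0.11 in the third comparison (adjusted p = 0.0234), where every YAP mutant vector array was below every untreated one. That call was lost without any one of the 3 untreated arrays (0.0508 to 0.0818), without YAP mutant vector replicate 1 (0.118) or 2 (0.0856), and for CYP26A1 with common median scaling (0.128). Of the 12 tested genes of 18 in the list, 0 were called between the vectors, 1 rose in the second comparison, and 1 rose and 1 fell in the third, with medians of 0.10, -0.01 and 0.05. An unadjusted p under 0.05 was reached by 1, 3 and 3 of them. Of all features 0.333%, 2.17% and 5.16% were called, and 6.51%, 13.9% and 18.3% had an unadjusted p under 0.05. The medians over all features were -0.00066, -0.0029 and -0.0061.

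**Figure D5:**
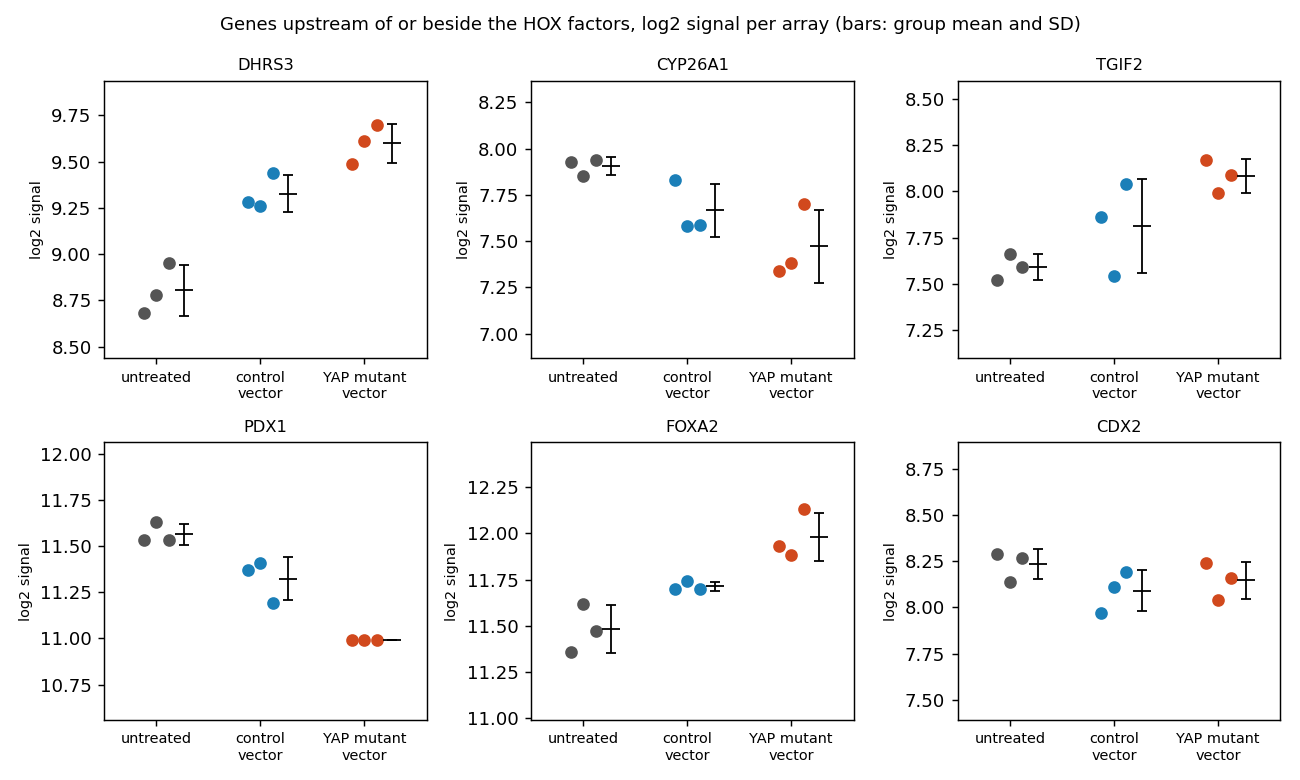
Normalized log2 signal per array (points) with group mean and SD (bars) for DHRS3, CYP26A1, TGIF2, PDX1, FOXA2 and CDX2, each panel on its own axis. DHRS3 steps from 8.68 to 8.95 in untreated cells up to 9.49 to 9.70 with the YAP mutant vector, and CDX2 stays between 7.97 and 8.29.

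Chromatin regulators of the clusters gave no call. Of 28 Polycomb genes 24 were tested, and of 19 Trithorax and MLL genes 17 had a probe and 15 were tested. In each of the 3 comparisons limma called 0 of them. An unadjusted p under 0.05 was reached by 1, 2 and 4 Polycomb genes and by 0, 1 and 0 Trithorax genes. The medians were -0.01, 0.00 and -0.05 and 0.06, -0.04 and 0.00. For all features the medians were -0.00066, -0.0029 and -0.0061. The called shares there were 0.333%, 2.17% and 5.16%, and the shares with an unadjusted p under 0.05 were 6.51%, 13.9% and 18.3%. EZH2, the Polycomb methyltransferase, was at 8.95, 8.86 and 8.78, then 9.14, 8.93 and 8.63, then 9.01, 9.15 and 8.27, with YAP mutant vector replicate 3 the lowest. KMT2A, the MLL methyltransferase, was above background on 9 arrays and differed by 0.05, -0.05 and 0.00. GMNN, which binds HOX proteins, differed by -0.05 in both comparisons with untreated cells.

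Genes beside the clusters and RNA genes within them were tested for 11 of 27, of which 17 had a probe. HOTAIR, which lies in the HOXC cluster, EVX1 and EVX2, which flank HOXA13 and HOXD13, and PRAC1 and PRAC2, which lie near HOXB13, were on 0 arrays. HOXA11-AS was above background on 9 arrays, from 9.37 to 9.95, and differed by 0.00, -0.04 and -0.04. HIBADH, a valine breakdown enzyme beyond the posterior end of HOXA, was at 11.42, 11.26 and 11.42 untreated, 10.96, 11.01 and 10.84 with the control vector and 11.09, 11.22 and 10.85 with the YAP mutant vector. Both vector groups of HIBADH lay below the untreated one, and it fell by 0.43 ± 0.11 in the second comparison (limma, adjusted p = 0.0408), a call lost for HIBADH without any one of these 6 arrays (0.0546 to 0.189). In that comparison HIBADH was called in 12 of 21 alternatives (limma, adjusted p up to 0.282). In the other comparisons limma called 0 genes of this list. Between the vectors 1 gene had an unadjusted p under 0.05, with 1 in the second comparison and 2 in the third. Over all features 0.333%, 2.17% and 5.16% were called in that order, and 6.51%, 13.9% and 18.3% had an unadjusted p under 0.05. Probes for the microRNA genes of the clusters, MIR10A, MIR10B, MIR196A1, MIR196A2 and MIR196B, looked up after the other values, were above background on 0 of 9 arrays. Which form of a microRNA transcript these probes can read is not known here, so this does not show that the microRNAs were absent.

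A few cell type markers, of the line's own types and of others, moved with the vectors, and their part in the HOX results was not tested. Tested were 6 epithelial, 8 enteroendocrine, 7 fibroblast, 3 blood and 1 endothelial markers. Between the vectors limma called 0 of them. In the second comparison it called 1 enteroendocrine and 1 blood marker. In the third it called 1 epithelial and 1 fibroblast marker higher, and of the enteroendocrine markers 1 higher and 2 lower. Over all features 0.333%, 2.17% and 5.16% were called. Of 10 fibroblast markers 4, 5 and 6 were above background on 3 of 3 arrays in untreated, control vector and YAP mutant vector cells. COL3A1, LUM, FAP and POSTN were above it on 9 arrays, and DCN, PDGFRB and THY1 on 0. PDGFRA was close to the floor, at log2 6.47, 6.39 and 6.28 untreated, 6.73, 6.69 and 7.03 with the control vector and 6.53, 6.56 and 6.90 with the YAP mutant vector. It passed the floor on 0 untreated arrays but on 3 of 3 in each vector group. It differed by 0.44 in the second comparison, not called (limma, adjusted p = 0.056). The summed signal of the fibroblast markers was 5597 to 6491, 6414 to 8041 and 6221 to 8297. LUM rose by 0.51 in the third comparison (limma, adjusted p = 0.0166). It was not called without untreated replicate 2 (0.0569), untreated replicate 3 (0.0631) or YAP mutant vector replicate 1 (0.124). Over all alternatives LUM was called in 16 of 21 (limma, adjusted p up to 0.284). Of 10 blood cell markers 3 were above background in each group, namely CD14, LYZ and CD68, while PTPRC, CD3E, CD2 and ITGAM were on 0 arrays. Their summed signal was 5264 to 6346, 6102 to 7072 and 5654 to 6517, and CD14 rose by 0.43 in the second comparison (adjusted p = 0.0385), a call kept in 13 of 21 alternatives and lost without untreated replicate 1 (0.0952) or 3 (0.184) and without any one control vector array (0.0555 to 0.130). Of 8 endothelial markers 1, 0 and 1 were above background, with CDH5, VWF, KDR, EMCN and CLEC14A on 0 arrays. Among enteroendocrine markers SCG2 fell by 0.43 in the second comparison (adjusted p = 0.0257) and by 0.87 in the third (6.67e-06). The first of these SCG2 calls was lost without untreated replicate 2 (0.0821) or 3 (0.128) and without control vector replicate 2 (0.0552) or 3 (0.149). That call was kept in 15 of 21 alternatives (limma, adjusted p up to 0.281). PCSK1 fell by 0.57 (adjusted p = 0.00261) and SCG5 rose by 0.35 (0.0349) in the third comparison, and the call of SCG5 was lost without any one of the 6 arrays compared (0.0511 to 0.119). Over all alternatives SCG5 was called in 12 of 21 (limma, adjusted p up to 0.469). The enteroendocrine sum was 40431 to 44722, 41413 to 46158 and 40425 to 42193. KRT8 rose by 0.50 in the third comparison (adjusted p = 0.0474), a call lost without any one untreated array (0.0681 to 0.179), without control vector replicate 1 (0.0536) and without YAP mutant vector replicate 1 (0.111) or 2 (0.243). Over all alternatives KRT8 was called in 12 of 21 (limma, adjusted p up to 0.457). The epithelial sum was 6969 to 7265, 6600 to 8001 and 7606 to 7932.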

How the data were processed

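RNA of 9 NCI-H716 samples was measured on an Illumina bead array, grouped by the treatment in the labels. The deposited probe intensity, exported with BeadStudio per the submitters' processing notes (its version is not given in the sources used here), had not been normalized between arrays or freed of background, and carries no detection p-value. The deposited log2 values differed by at most 0.022 from the log2 of quantile-normalized intensity. No column was left out (0), and 0 pairs of arrays were identical. The number of arrays limits the precision.

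Here limma 3.58.1 (R 4.3.3) applied normexp with an offset of 50 and quantile normalization before log2. With no detection p, the floor of an array was the mode of its log2 signal plus the 0.95 normal quantile times the SD of the lower side; probes above it on at least 3 arrays were kept (20217). RefSeq updated the symbols of 4621 probes, and 3330 had no name. A model with 1 mean for each group (6 residual and 16 prior degrees of freedom) gave 3 comparisons, 2-sided, over 15595 features. Steps were tested on simulated data.

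Members and lists were chosen with earlier results of these data known. Array values are given for HOX genes above the floor on 3 of 3 arrays of a group. Other lists name their called genes, up to 4, plus CDX1, CDX2, MEIS1, EZH2, KMT2A and CYP26A1, and further names are examples. A few genes enter the counts and are not named. Replicate numbers were not used to pair arrays in the main fit. Deviations from group means correlated at -0.20 to 0.16, over 0.1 in 1 of 9 pairs. With so few arrays this cannot settle whether they were paired. Alternatives changed the background correction, normalization, filter, probe rule, samples fitted and variance prior, added a replicate block, or left out each array.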

Additional observations from a re-analysis of the deposited data

How the results depend on the processing

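Of 1557 values of the 25 tested HOX genes under alternatives, 1542 stayed on the same side of the threshold, 55 changed sign with none past it, 13 lost the call and 2 gained it. Called HOX genes went from 1 to 0 with a common median and to 0 with the mean over probes in control vector against untreated cells, and from 2 to 0 under both in YAP mutant vector against untreated cells. Leaving out each array gave 0 to 1, 1 to 2 and, between the vectors, 0 to 1. There HOXD1 was called only without YAP mutant vector replicate 3, which is 1 of 21 alternatives. HOXC4 was called in 16 of 21 alternatives against untreated cells with the control vector (0.23 to 0.51, adjusted p from 0.00674 to 0.55) and in 19 of 21 with the YAP mutant vector (0.24 to 0.67, 2.38e-04 to 0.165). HOXB6 was called in 15 of 21 (-0.49 to -0.24, 0.0212 to 0.167). The cause of these losses was not tested. HOX genes above background numbered 20 to 22, 20 to 24 and 20 to 24 in the 3 groups under other floors and rules. The replicate block left the called HOX genes at 0, 1 and 2. With it HOXD1 between the vectors was at limma adjusted p = 0.0523, and the calls over all features were 64, 380 and 860. Over all features a common median moved the calls from 52, 339 and 804 to 10, 47 and 182, and the share of higher ones in the second comparison from 69.9% to 59.6%. Leaving out both dim arrays was added after seeing the data. No chip was named, so the chip block was not run. Signals near the floor, as in HOXA7, HOXB3, HOXC10, HOXC13, HOXB13 and HOXD3, limit what can be said of them.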
